A study of Mus musculus with 26 samples.

Results

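The Wnt ligands, their receptors and the secreted proteins that modulate them were followed as 56 genes among the 55341 listed in each of 26 RNA-Seq libraries of C2C12, a mouse myoblast line. They are the protein-coding genes of the GENCODE M21 annotation with a numbered Wnt, Fzd, Rspo, Dkk or Sfrp symbol, together with Lgr4, Lgr5, Lgr6, Lrp5, Lrp6, Axin2, Lef1, Tcf7, Tcf7l1, Tcf7l2, Znrf3, Rnf43, Wif1, Frzb and Notum. In the siRNA experiment C2C12 cells received the control siRNA siCtrl, siSMYD3#1 or siSMYD3#2 by transfection before confluence and again a day later, as differentiation was induced, and 3 libraries of each were made at 0 h, when differentiation was induced, and at 24 h in differentiation medium. Whether the 0 h cells had received the second transfection is not given in the sources used here. In the overexpression experiment, cells infected with the empty retroviral vector pREV (vector) were set against SMYD3 CL5, a single clone selected after infection with pREV carrying HA- and Flag-tagged SMYD3, with 2 libraries of each at 0 h and 24 h. The vector cells had been sub-cloned as well. SMYD3 is a lysine methyltransferase, and the series asked how lowering or raising it changes the transcriptome of differentiating myoblasts. By the study's sample list, RNA of replicates 1 and 2 in every siRNA group came from passage 14 cells by NucleoSpin, that of replicate 3 from passage 11 cells by TRIzol, and that of all 8 overexpression libraries by TRIzol. Values of a group are given below in the order of replicates 1, 2 and 3, so that the third value of an siRNA group is always its TRIzol library.

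Wnts are lipid-modified secreted glycoproteins that bind Frizzled receptors and the co-receptors Lrp5 and Lrp6, after which beta-catenin escapes destruction and joins TCF/LEF proteins at target genes. R-spondins, through Lgr4, Lgr5 and Lgr6, restrain the ubiquitin ligases Znrf3 and Rnf43 and so keep Frizzleds at the cell surface, whereas Dickkopfs bind the Lrp co-receptors and secreted Frizzled-related proteins bind the ligands themselves. In muscle, Wnt signals take part in the specification of the myotome, and in adult muscle in the commitment of satellite cells and in fibre growth.

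The siRNA strands are shown because the Wnt genes differed between the libraries of the 2 siRNAs directed at Smyd3. The antisense strand, which guides the cleavage of RNA, is written 5′ to 3′ with its seed, bases 2 to 8, in capitals.
siCtrl: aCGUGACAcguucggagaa
siSMYD3#1: gUUGGGGUcacagcuguga
siSMYD3#2: uCAAAUCUucaaucaggcu
The strand of siSMYD3#1 is complementary to 19 bases of the coding part of exon 7 of Smyd3 (transcript Smyd3-204, GRCm38, chr1:179092935-179092953, minus strand) and that of siSMYD3#2 to 19 bases of the coding part of exon 12 (chr1:178957505-178957523). A match to the seed of siSMYD3#1 (ACCCCAA in the mRNA) was present in an annotated 3′ UTR of 10.8% of 12557 tested genes and of 9 of the 37 tested Wnt genes, namely Dkk3, Fzd8, Lef1, Lgr6, Tcf7, Wnt10b, Wnt2b, Wnt4 and Wnt7b. The seed of siSMYD3#2 (AGATTTG in the mRNA) had a match in 14.6% of the genes and in 9 of the 37, namely Dkk3, Fzd3, Fzd4, Fzd7, Lgr5, Lrp6, Rspo2, Rspo3 and Tcf7l2, and that of siCtrl (TGTCACG in the mRNA) in 3.18% and in 4 of the 37. A match is a description of letters and not a measured site.

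Between 14315193 and 60398170 reads were counted on genes in the siRNA libraries and between 21124675 and 67853386 in the overexpression libraries. Levels are given as CPM, counts relative to library size after TMM scaling within each experiment. Smyd3, the targeted gene, was 19.5 ± 1.48 CPM (SD, n = 3) in siCtrl at 24 h and 6.82 ± 2.45 with siSMYD3#2 (log2 fold change -1.51 ± 0.17, adjusted p = 5.06e-05 by edgeR's quasi-likelihood test). It was 16.5 ± 2.4 CPM in the libraries labelled siSMYD3#1 (-0.24 ± 0.16, adjusted p = 0.414). Since the Smyd3 transcript did not fall past the threshold in the latter, they are called below by their label. The study itself treats both siRNAs as knockdowns, with Smyd3 RNA followed by qPCR and SMYD3 protein by western blot. The counts here give RNA only and say nothing of the protein. In SMYD3 CL5 at 24 h Smyd3 was 22.6 ± 2.36 CPM (SD, n = 2) against 17.7 ± 0.812 in vector (0.36 ± 0.27, adjusted p = 0.671). The species of the SMYD3 cDNA is not given in the sources used here, so whether these counts include the transgene is not known. All 10 myotube markers rose in siCtrl between 0 h and 24 h, and at 24 h 10 of 10 were lower in the libraries labelled siSMYD3#1 and 9 of 10 with siSMYD3#2. Of these, Myog, the transcription factor myogenin, was 180.1 ± 109.7 CPM in siCtrl, 14.2 ± 7.53 with siSMYD3#1 and 41.7 ± 9.3 with siSMYD3#2. The p-values measure the spread between these libraries, which the study's methods call biological replicates. Replicates 1 and 2 of the siRNA groups share passage and extraction, and how independent they were is not given in the sources used here. No gene of the osteoblast (3 tested), adipocyte (1), endothelial (2), macrophage (2), smooth muscle (4) or glial and neuronal (1) marker lists passed with either siRNA at 24 h. Of 6 proliferation markers, 1 was higher with siSMYD3#1 and 5 with siSMYD3#2, and of 6 myoblast identity markers 1 was lower with siSMYD3#1 and 0 with siSMYD3#2. In bulk RNA, fewer differentiated cells and less RNA per cell cannot be told apart, and the part of the differentiation and proliferation states in the Wnt results below was not tested.

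Of the 56 genes, 37 had enough counts for a test in the siRNA experiment, 38 in the overexpression experiment and 36 in both. Rspo1 and Wnt1 were tested only in the overexpression experiment and Wnt5a only in the siRNA experiment. The 17 tested in neither, which reached at most 9 counts in any library, were Dkk1, Dkk4, Frzb, Fzd10, Rnf43, Rspo4, Sfrp1, Sfrp5, Wif1, Wnt16, Wnt2, Wnt3, Wnt3a, Wnt7a, Wnt8a, Wnt8b and Wnt9b. Of these, Dkk1, Fzd10, Wnt3a and Wnt9b had 0 counts in all 26 libraries.

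Read per kb of exon, which allows genes to be compared, the R-spondin receptor Lgr4 (26.3 CPM per kb as the mean of the 18 siRNA libraries), the ligand Wnt10a (26.2) and the receptor Fzd2 (25.8) had the highest levels. Their ranges over these libraries, 9.18 to 56, 13.1 to 58.6 and 13.7 to 49.3 CPM per kb, overlapped, so that their order was not resolved. Next came Fzd1 (16.3), Fzd7 (15.5), the co-receptor Lrp5 (12.7) and Tcf7 (11.8), which encodes the transcription factor TCF1 and had the highest mean level of the TCF/LEF genes. Among the ligands Wnt10a was followed by Wnt7b (10.4) and Wnt10b (7.72). The secreted inhibitors and R-spondins were lower: the highest of each family were Dkk2 (3.57), Sfrp2 (0.851) and Rspo3 (0.615 CPM per kb). These means join both extractions, and part of the order turned within them. Wnt7b was 15.1 CPM per kb in the 12 NucleoSpin and 0.858 in the 6 TRIzol libraries, and Wnt10b 4.94 and 13.3. Sfrp2 was 0.221 and 2.11 against 0.641 and 0.2 for Sfrp4, so that Sfrp2 led in the TRIzol libraries only. In these Dkk3 (1.85) was also above Dkk2 (1.11), and Tcf7l1 (14.8) above Tcf7 (11.1). Lrp5 had the lowest coefficient of variation of the 37 genes tested over these libraries, and no comparison called it. It had 98.5, 122 and 101 CPM in siCtrl at 0 h, 119, 124 and 129 at 24 h, 139, 126 and 124 with siSMYD3#1 and 132, 132 and 130.2 with siSMYD3#2 at 24 h.

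**Figure D1:**
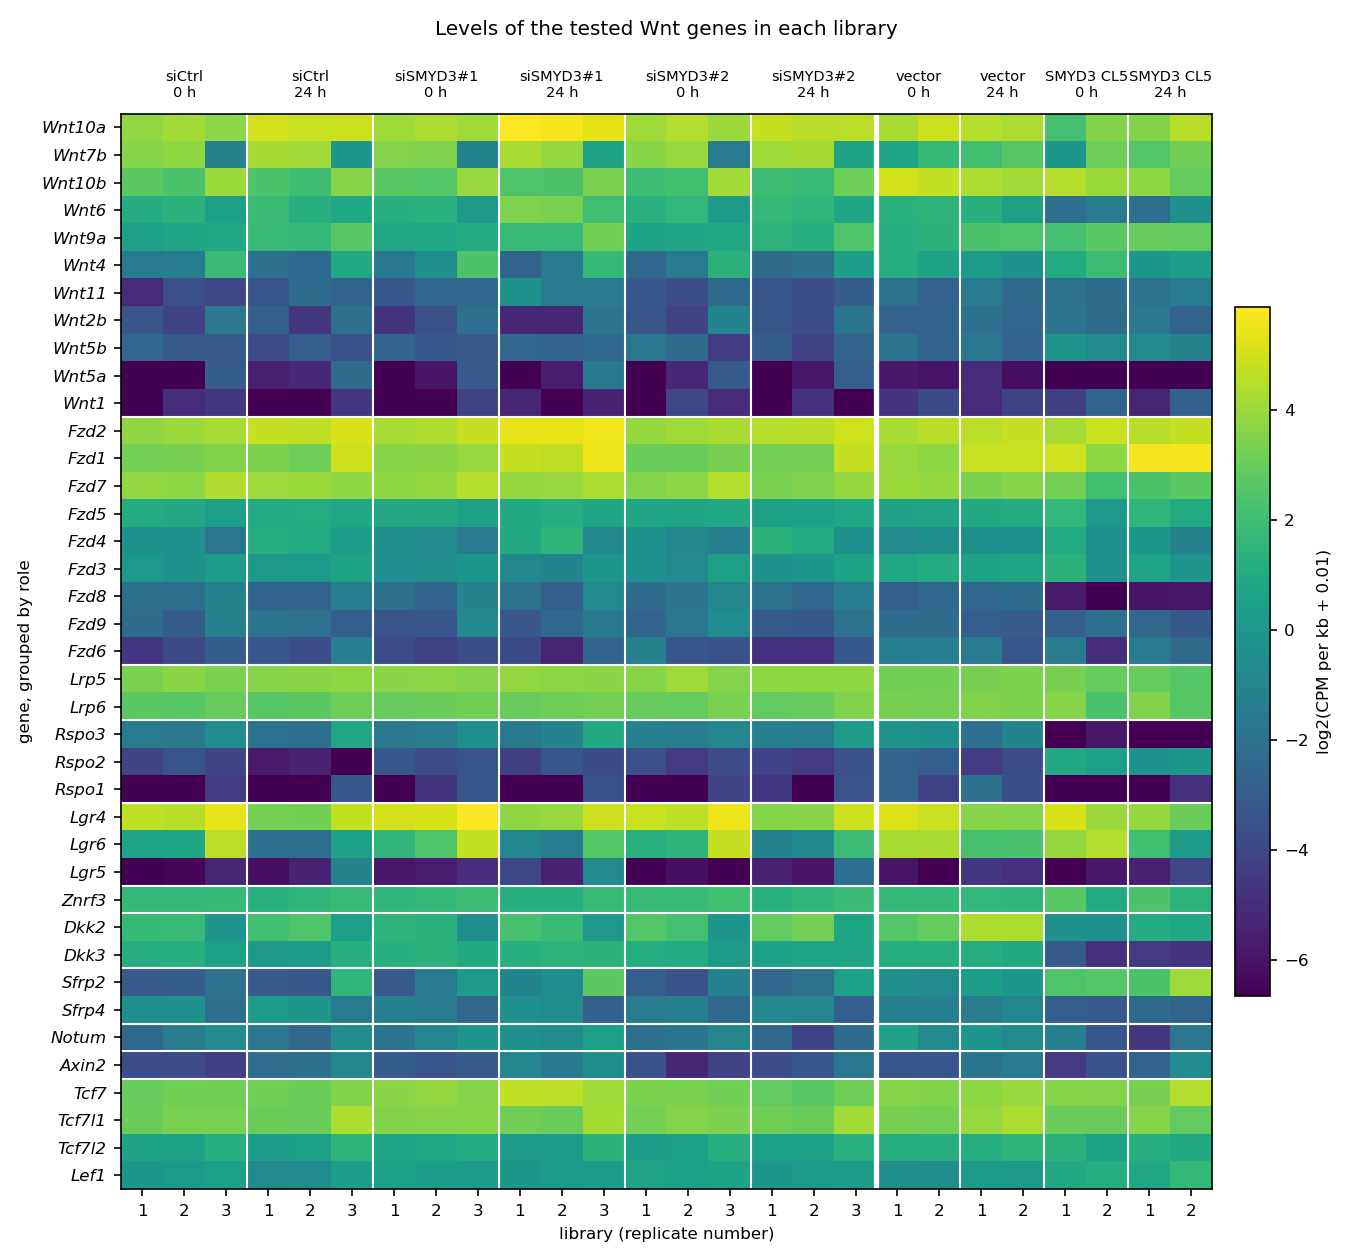
Level of each of the 39 Wnt genes tested in at least 1 experiment (rows, grouped by role) in each of the 26 libraries (columns, by group and replicate), as log2(CPM per kb + 0.01). Replicate 3 of the siRNA groups stands apart from replicates 1 and 2 of the same group, as for Wnt7b and Wnt5a, and Rspo3 and Dkk3 are near the bottom of the scale in SMYD3 CL5.

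Replicate 3 of the siRNA groups, which differs from replicates 1 and 2 in both extraction and passage, differed in the levels of many Wnt genes. The term for TRIzol against NucleoSpin libraries, read out after seeing the data, passed the threshold for 26 of the 37 genes (70.3%, 21 higher and 5 lower), beside 51.3% of all genes tested (26.1% higher and 25.3% lower). The largest differences were those of Wnt5a, a ligand of the beta-catenin-independent branch (4.98 ± 0.44, adjusted p = 1.98e-08), and of Wnt7b (-4.21 ± 0.20, adjusted p = 2.37e-10). Next were Lgr5 (4.0 ± 0.41, adjusted p = 1.76e-07), Wnt4 (3.30 ± 0.17, adjusted p = 1.76e-11) and Lgr6 (3.25 ± 0.16, adjusted p = 3.76e-10). In siCtrl at 24 h, for example, Wnt7b was 87.9, 84.8 and 4.61 CPM and Wnt5a 0.0877, 0.131 and 1.58 CPM. All 6 TRIzol libraries lay below all 12 NucleoSpin libraries for Wnt7b and above them for Wnt5a. Wnt5a had at most 3 counts in any NucleoSpin library and 17 to 82 in the TRIzol libraries, so the size of its difference rests on few counts. Of the marker lists, 5 of 6 proliferation and 4 of 6 myoblast identity markers were lower in the TRIzol libraries and 1 of each was higher. Extraction and passage cannot be told apart here. Every siRNA comparison below holds extraction as a covariate, and values from the NucleoSpin libraries alone are given where they change a call.

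**Figure D2:**
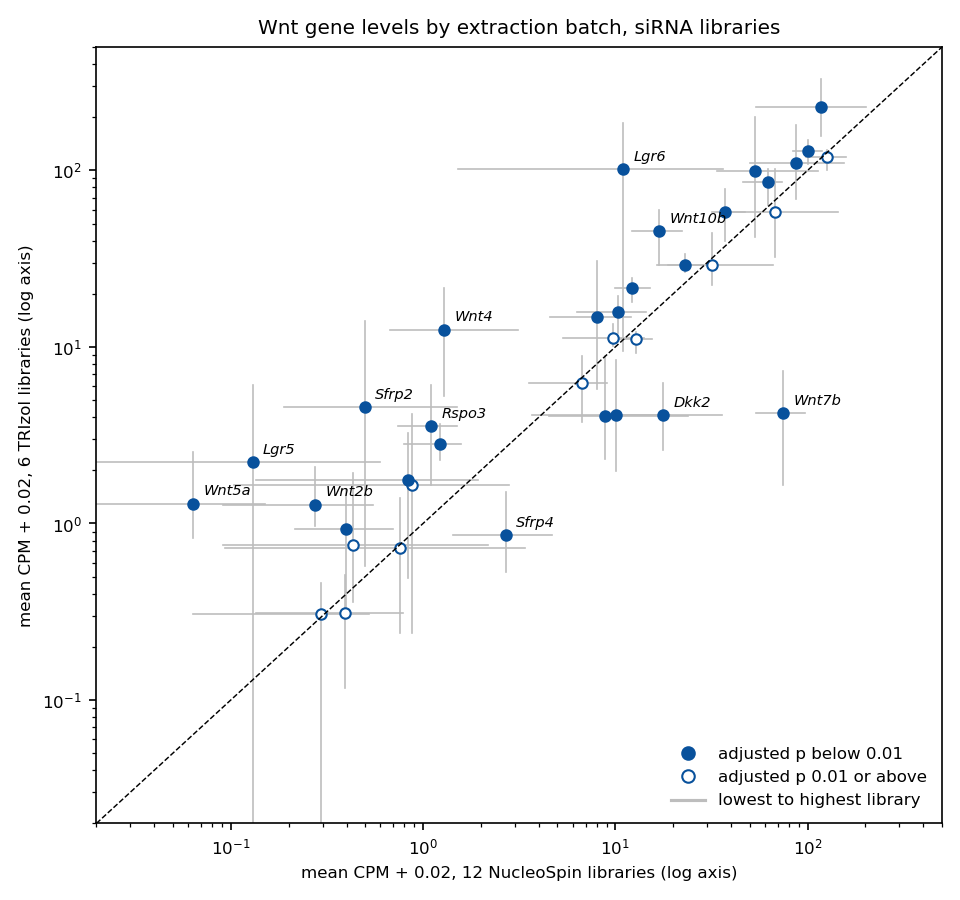
Mean CPM + 0.02 of the 37 Wnt genes tested in the siRNA experiment in the 12 NucleoSpin libraries (x axis) and the 6 TRIzol libraries (y axis), both log axes; filled points passed an adjusted p of 0.01 for the difference and the dashed line marks equal levels. Grey lines run from the lowest to the highest library. Wnt7b lies far below the line and Wnt5a, Lgr5, Wnt4 and Lgr6 above it.

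During differentiation of siCtrl cells, the ligands Wnt9a and Wnt10a and the receptors Fzd2 and Fzd4 rose, and the R-spondin receptors Lgr4 and Lgr6 fell. At an adjusted p of 0.01, 9 of the 37 Wnt genes differed between 24 h and 0 h (24.3%, 6 higher and 3 lower), beside 29.4% of all genes tested (14.6% higher and 14.8% lower). DESeq2 called 8 of 38 (21.1%, beside 28.1% of all genes). The median log2 fold change of the 37 was 0.21, beside 0.03 over all genes. Of the ligands, Wnt10a (chromosome 1, 74791516 to 74804179, plus strand) was 35.9, 42.9 and 32.4 CPM at 0 h and 79.8, 70.5 and 72.7 at 24 h. Its groups did not overlap (log2 fold change 1.01 ± 0.12, adjusted p = 2.71e-06). Wnt9a (chromosome 11, 59306928 to 59333552, plus strand) rose from 4.54, 5.43 and 6.07 to 12, 10.8 and 21.3 CPM, and every 24 h library lay above every 0 h library (log2 fold change 1.39 ± 0.21, adjusted p = 4.56e-05). The other 8 ligands tested did not pass the threshold. Of these, Wnt6, the neighbour of Wnt10a on the same strand of chromosome 1, was 4.5, 5.76 and 2.91 CPM at 0 h and 7.98, 5.22 and 3.8 at 24 h (log2 fold change 0.38 ± 0.18, adjusted p = 0.0954).

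Among the receptors, Fzd2 (chromosome 11, 102604396 to 102608058, plus strand) rose from 50.2, 57.3 and 68.7 to 102, 92.7 and 126 CPM (log2 fold change 0.86 ± 0.08, adjusted p = 2.74e-07). Fzd4 (chromosome 7, 89404355 to 89413134, plus strand), which also binds the ligand norrin, rose from 5.74, 5.26 and 1.95 to 14.9, 13.6 and 8.41 CPM (log2 fold change 1.61 ± 0.25, adjusted p = 5.47e-05). For both genes all 24 h libraries were above all 0 h libraries. The other 7 Frizzled genes tested, and Lrp5 and Lrp6, did not pass.

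All 3 R-spondin receptors passed the threshold. Lgr6 (chromosome 1, 134983301 to 135105276, minus strand) was 10.9, 11.4 and 166 CPM at 0 h and 1.62, 1.5 and 9.5 at 24 h. It fell in each replicate, and the 24 h libraries lay below all 0 h libraries (log2 fold change -3.48 ± 0.33, adjusted p = 1.32e-06). Lgr4 (chromosome 2, 109917647 to 110014257, plus strand) was 150.2, 136 and 254 CPM at 0 h and 55.4, 54 and 157 at 24 h. It fell in each replicate as well, although the TRIzol library at 24 h was above the NucleoSpin libraries at 0 h, so the groups overlapped (log2 fold change -1.14 ± 0.14, adjusted p = 3.17e-06). Lgr5 (chromosome 10, 115450311 to 115587780, minus strand), a marker of intestinal stem cells, was at 0, 1 and 4 counts at 0 h and 1, 2 and 127 at 24 h. The TRIzol library at 24 h held nearly all of them, and the groups overlapped (log2 fold change 4.30 ± 0.81, adjusted p = 0.000324). Without that library its adjusted p was 0.169 and its log2 fold change 2.57, and without the TRIzol library at 0 h 0.0311 and 3.66. Rspo2 (chromosome 15, 43020794 to 43170826, minus strand), a ligand of these receptors, had 7, 25 and 7 counts at 0 h and 1, 1 and 0 at 24 h. The groups did not overlap, with a ratio of 11.5 between the summed counts over the summed library sizes, with a 95% counting interval of 2.98 to 98.3 (log2 fold change -3.25 ± 0.75, adjusted p = 0.00179). Its call was lost without siCtrl replicate 2 at 0 h (adjusted p = 0.013) or replicate 3 at 24 h (0.0174), and in the NucleoSpin libraries alone (0.0169).

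Of the remaining genes, Axin2 (chromosome 11, 108920349 to 108950783, plus strand), a scaffold of the beta-catenin destruction complex that is itself a target of the pathway, rose from 0.366, 0.343 and 0.221 to 1.18, 1.31 and 2.92 CPM. The groups did not overlap (log2 fold change 2.37 ± 0.45, adjusted p = 0.000354). Of its exon bases, 209 are shared with Gm11670 on the opposite strand. No Dickkopf, Sfrp or TCF/LEF gene passed the threshold in all 18 libraries, whereas in the NucleoSpin libraries alone Dkk3 (-1.06, adjusted p = 4.97e-05) and Lef1 (-0.78, adjusted p = 0.000513) fell. For Dkk3 the 24 h level was 3.55, 3.85 and 7.7 CPM against 7.35, 7.85 and 4.68 at 0 h, lower in both NucleoSpin replicates and higher in the TRIzol replicate. Sfrp2, the highest of the Sfrp genes per kb over all 18 libraries, was 0.22, 0.257 and 0.552 CPM at 0 h and 0.219, 0.196 and 6.47 at 24 h, high in the TRIzol library only (log2 fold change 1.93 ± 0.57, adjusted p = 0.0121). Rspo3, the highest of the R-spondins per kb, was also highest in the TRIzol libraries, with 1.02, 0.943 and 2.1 CPM at 0 h and 0.745, 0.718 and 5.49 at 24 h (log2 fold change 0.48 ± 0.38, adjusted p = 0.334).

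Lgr6, with the largest F value of the 37 genes between 24 h and 0 h in siCtrl, was most like Lgr4 over the 18 siRNA libraries, with a Pearson correlation of log2 CPM of 0.96. The correlation was 0.97 over the 12 NucleoSpin libraries and 0.93 over the 6 TRIzol libraries. Wnt4 (0.82), Znrf3 (0.81), Wnt10b (0.79) and Fzd8 (0.75) followed. Within the NucleoSpin and the TRIzol libraries these were 0.62 and 0.71 for Wnt4, 0.77 and 0.35 for Znrf3, 0.33 and 0.75 for Wnt10b and 0.43 and 0.32 for Fzd8. These points share time, treatment and extraction, and the values are a description. Of the 9 genes called over time, Fzd2, Wnt10a, Axin2 and Rspo2 passed without the extraction covariate (10.8% of the 37, beside 10.6% of all genes), and Lgr6 had an adjusted p of 0.102 there.

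At 24 h, Wnt6, Wnt10a, Fzd2, Lgr6 and Tcf7 were higher and Fzd3 was lower in the libraries labelled siSMYD3#1 than in siCtrl. At an adjusted p of 0.01, 6 of the 37 genes differed (16.2%, 5 higher and 1 lower), beside 5.85% of all genes tested (2.91% higher and 2.94% lower). The median log2 fold change was 0.35 for the 37 and -0.00 for all genes. The smallest adjusted p was that of Wnt6 (chromosome 1, 74771892 to 74785322, plus strand), with 7.98, 5.22 and 3.8 CPM in siCtrl and 23.7, 22.7 and 8.89 with siSMYD3#1, a ratio of means of 3.25. All siSMYD3#1 libraries lay above all siCtrl libraries, and the NucleoSpin libraries were highest (log2 fold change 1.62 ± 0.17, adjusted p = 7.55e-06). Its neighbour Wnt10a, whose start lies downstream of the end of Wnt6 on chromosome 1, was 79.8, 70.5 and 72.7 CPM in siCtrl and 145, 130.2 and 102 with siSMYD3#1, again with no overlap (log2 fold change 0.75 ± 0.12, adjusted p = 0.000321).

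Fzd2 was 102, 92.7 and 126 CPM in siCtrl and 155, 155 and 181 with siSMYD3#1, so that it rose over time and was higher still with siSMYD3#1 (log2 fold change 0.63 ± 0.08, adjusted p = 5.24e-05). Fzd3 (chromosome 14, 65192449 to 65262463, minus strand), a receptor of the planar polarity branch, was the only gene of the 37 that was lower past the threshold. It had 13.8, 14.4 and 18.8 CPM in siCtrl and 6.89, 6.3 and 12.3 with siSMYD3#1 (log2 fold change -0.92 ± 0.15, adjusted p = 0.000557). Tcf7 (chromosome 11, 52252371 to 52283014, minus strand) was 24.2, 22 and 29.4 CPM in siCtrl and 66.1, 63.9 and 44 with siSMYD3#1, a ratio of means of 2.3 (log2 fold change 1.19 ± 0.16, adjusted p = 5.29e-05). For Fzd2, Fzd3 and Tcf7 the siSMYD3#1 and siCtrl libraries did not overlap, and each of the 18 fits that left out a library kept the call. Lgr6 was 1.62, 1.5 and 9.5 CPM in siCtrl and 3.55, 2.55 and 41.2 with siSMYD3#1. It was higher in each replicate, but the groups overlapped (log2 fold change 1.63 ± 0.34, adjusted p = 0.00574). Its call was lost without siCtrl replicate 1 (adjusted p = 0.0109), 2 (0.0144) or 3 (0.0853), without siSMYD3#1 replicate 1 (0.0154) or 3 (0.0584), and in the NucleoSpin libraries alone (0.0403).

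**Figure D3:**
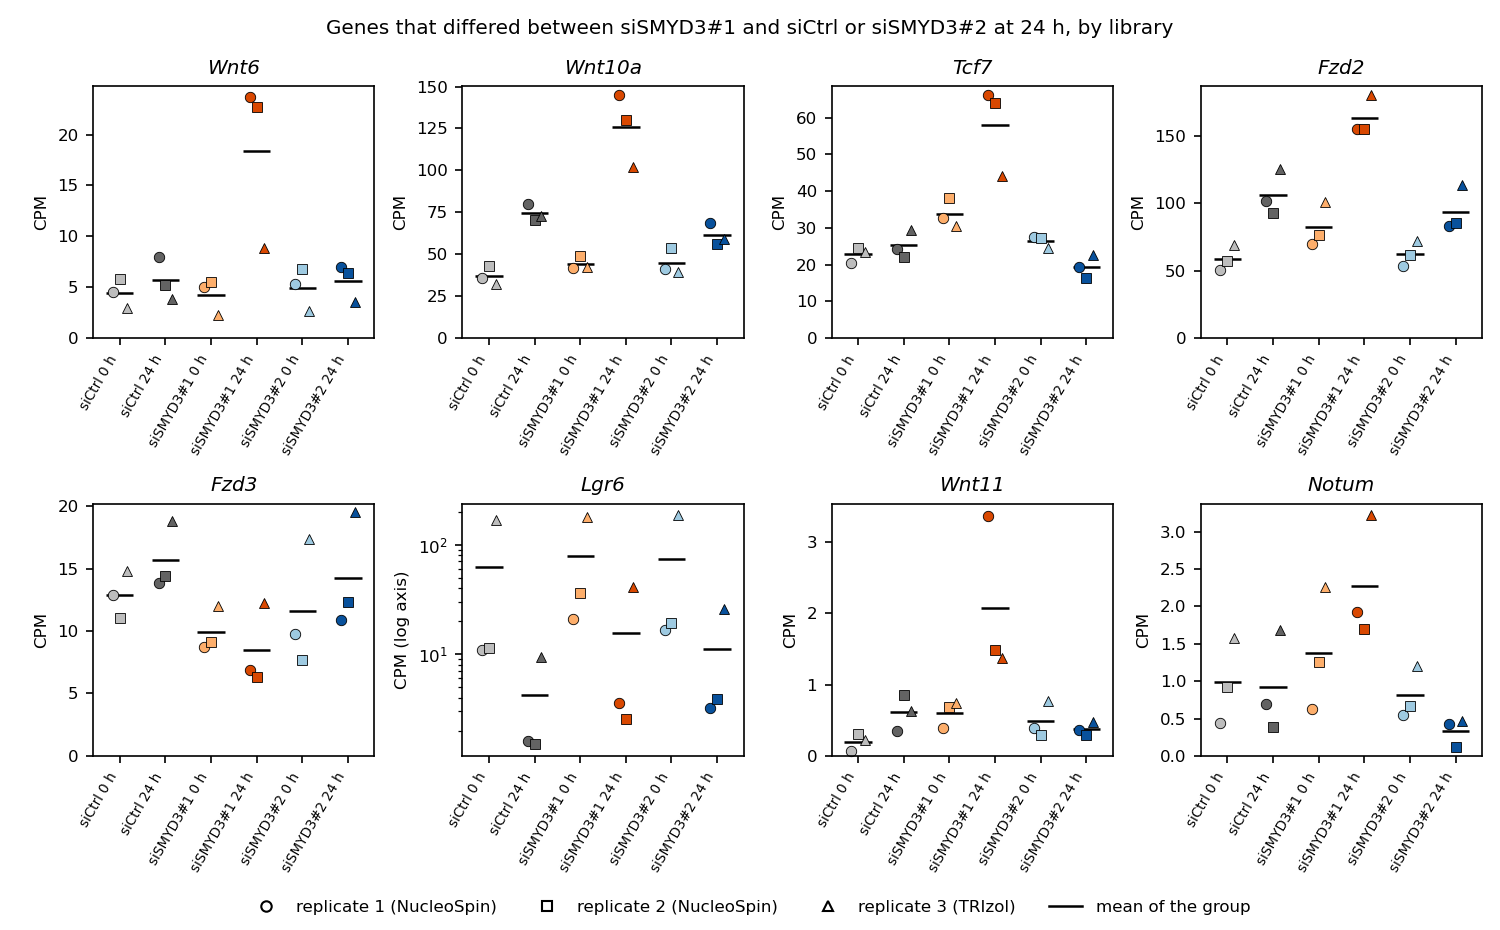
CPM of 8 Wnt genes in each siRNA library (points, replicates 1 to 3; Lgr6 on a log axis) with the mean of each group (bar). Wnt6, Wnt10a, Tcf7 and Fzd2 are highest in the siSMYD3#1 libraries at 24 h, the group mean of Fzd3 is lowest there, and siSMYD3#2 at 24 h stays near siCtrl for Wnt6.

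In the NucleoSpin libraries alone, 12 of 34 tested Wnt genes differed between siSMYD3#1 and siCtrl at 24 h (35.3%, 11 of them higher), beside 11.6% of all genes in the same fit (5.63% higher and 6.01% lower). Those added were Fzd1 (1.46, adjusted p = 2.97e-08), Sfrp2 (2.54, 0.00501), Wnt11 (2.15, 0.00807), Dkk3 (1.21, 7.02e-05), Lef1 (0.74, 0.00307), Lgr4 (0.61, 0.0003) and Lrp6 (0.40, 0.00332), each given as log2 fold change and adjusted p. Fzd1 was 44, 36.2 and 127 CPM in siCtrl and 114, 107 and 201 with siSMYD3#1, higher in each replicate, and missed the threshold by edgeR over all 18 libraries (log2 fold change 1.13 ± 0.27, adjusted p = 0.0141). DESeq2 on the same libraries called it (1.14, adjusted p = 0.000124), as did edgeR without the low-count filter. In all DESeq2 called 9 of 37 tested genes (24.3%, beside 8.28% of all genes), with Wnt11 and Notum added as well. Without siCtrl replicate 3 at 24 h, the TRIzol library, 10 of the genes passed in place of 6. The share of all genes in that fit was not computed. Without the extraction covariate Tcf7 alone of the 6 passed (beside 0.645% of all genes, adjusted p = 0.00174), and Wnt6 had an adjusted p of 0.092.

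Windows before RefSeq starts of 3 genes that were higher with siSMYD3#1 are shown, since SMYD3 has been reported to bind the element CCCTCC. The study also names GAGGGG as such an element, which is neither marked nor counted here. It states as well that no significant binding of SMYD3 was detected at the myogenin locus, where several such sites lie. Each is the 250 bases before a RefSeq start (GRCm38.p6), 5′ to 3′ on the strand of the gene, in lower case. Capitals mark every CCCTCC (or GGAGGG, its reverse complement) and every CAGCTG, the E-box favoured by MyoD and myogenin.
Wnt6 (chr1:74771642-74771891, plus strand): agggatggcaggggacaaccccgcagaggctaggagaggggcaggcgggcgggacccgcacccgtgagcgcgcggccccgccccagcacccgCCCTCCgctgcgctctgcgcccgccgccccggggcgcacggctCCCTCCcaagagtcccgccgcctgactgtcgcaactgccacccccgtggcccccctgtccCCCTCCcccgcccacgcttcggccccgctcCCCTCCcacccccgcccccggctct
Lgr6 (chr1:135105277-135105526, minus strand): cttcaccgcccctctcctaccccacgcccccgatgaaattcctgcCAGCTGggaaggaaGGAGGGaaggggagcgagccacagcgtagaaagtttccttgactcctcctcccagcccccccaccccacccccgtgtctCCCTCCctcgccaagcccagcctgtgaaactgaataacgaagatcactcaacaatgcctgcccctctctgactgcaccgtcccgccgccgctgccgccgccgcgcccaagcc
Tcf7, internal start (chr11:52282596-52282845, minus strand): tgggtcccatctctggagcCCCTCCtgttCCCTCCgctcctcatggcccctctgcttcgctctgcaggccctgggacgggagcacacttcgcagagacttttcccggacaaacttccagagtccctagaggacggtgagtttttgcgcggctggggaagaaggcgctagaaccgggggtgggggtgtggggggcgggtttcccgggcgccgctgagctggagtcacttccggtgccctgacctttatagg
Tcf7, start of the gene (chr11:52283015-52283264, minus strand): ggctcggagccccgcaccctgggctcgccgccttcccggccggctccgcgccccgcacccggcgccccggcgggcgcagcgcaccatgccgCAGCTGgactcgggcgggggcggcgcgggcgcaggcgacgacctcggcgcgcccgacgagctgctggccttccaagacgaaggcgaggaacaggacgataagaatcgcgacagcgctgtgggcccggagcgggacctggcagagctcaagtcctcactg
The Wnt6 window holds CCCTCC at 4 places, and that of Lgr6 at 2 places. Tcf7 has 2 windows, of which that of the internal start holds CCCTCC at 2 places and CAGCTG at 0, and that of the gene start CCCTCC at 0 and CAGCTG at 1. In the gene start window this CAGCTG follows an atg in frame, with no stop codon in that frame up to the window's end. It can therefore lie in coding sequence and is not shown to be a promoter element. Over all 32851 RefSeq windows of this length, 35.2% hold CCCTCC on either strand, 13% CAGCTG and 3.21% the TCF/LEF element CTTTGAT. A window was found for 37 Wnt genes, a set other than the 37 tested in the siRNA experiment. None was found for Wnt10a, Fzd2 or Fzd3, which also passed with siSMYD3#1. Of the 46 windows of the genes that had one, 30 hold CCCTCC (65.2%), 6 CAGCTG and 2 CTTTGAT. These windows have a median GC content of 66.4% beside 52.4% for all. In the windows shown no capital stretch overlaps another. A match is a description and not a binding site.

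With siSMYD3#2, which lowered the Smyd3 transcript past the threshold, 1 of the 37 genes differed from siCtrl at 24 h by edgeR (2.7%), beside 3.7% of all genes tested (2.04% lower). The median log2 fold change of the 37 was -0.13. That gene was Sfrp4 (chromosome 13, 19623104 to 19632994, plus strand), a secreted Frizzled-related protein, with 4.69, 4.11 and 1.48 CPM in siCtrl and 2.24, 2.13 and 0.51 with siSMYD3#2. It was lower in each replicate although the groups overlapped (log2 fold change -1.14 ± 0.25, adjusted p = 0.00817). With the replicate block its adjusted p was 0.012 and the count was 0. The call was also lost in 11 of the 18 fits that left out a library, with adjusted p up to 0.0414 without siCtrl replicate 1 at 24 h. The other 10 libraries were the remaining siCtrl libraries at both times, siSMYD3#2 replicates 1, 2 and 3 at 24 h and 2 at 0 h, and siSMYD3#1 replicate 1 at 0 h. In the NucleoSpin libraries alone 5 of 34 genes passed (14.7%, beside 8.38% of all genes, 3.26% higher and 5.12% lower), with Dkk2 (0.85, adjusted p = 0.00201) and Lef1 (0.75, 0.00406) higher and Fzd7 (-0.62, 0.000176) and Fzd5 (-0.58, 0.00654) lower beside Sfrp4.

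Lgr6, higher with siSMYD3#1, was 3.21, 3.92 and 26 CPM with siSMYD3#2 at 24 h, above siCtrl in each replicate but short of the threshold by edgeR (log2 fold change 1.38 ± 0.35, adjusted p = 0.0259). DESeq2 called it (1.32, adjusted p = 0.000211), as did edgeR without the low-count filter. DESeq2 also called Dkk2 (0.71, adjusted p = 0.00126), for 3 of 36 genes in all (8.33%, beside 6.95% of all genes, 3.47% higher). Rspo2 was at 1, 1 and 0 counts in siCtrl at 24 h, 6, 7 and 10 with siSMYD3#1 and 4, 3 and 10 with siSMYD3#2, and neither comparison passed (adjusted p = 0.0105 and 0.0254 by edgeR). Wnt6 was 6.97, 6.35 and 3.57 CPM with siSMYD3#2, inside the range of siCtrl except for the TRIzol library (log2 fold change -0.03 ± 0.18, adjusted p = 0.95).

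The siRNAs were compared directly at 24 h, as a call with one and not the other does not show a difference. Of the 37 genes, 8 differed between siSMYD3#1 and siSMYD3#2 (21.6%, 6 higher and 2 lower with siSMYD3#1), beside 3.36% of all genes tested (2.05% higher and 1.31% lower). The higher genes were Wnt6 (1.65 ± 0.18, adjusted p = 1.77e-05), Wnt10a (1.02 ± 0.12, adjusted p = 5.05e-05), Fzd2 (0.81 ± 0.08, adjusted p = 1.45e-05), Tcf7 (1.57 ± 0.16, adjusted p = 1.45e-05), Wnt11 (2.48 ± 0.50, adjusted p = 0.00438) and Notum (2.79 ± 0.41, adjusted p = 0.00036), each given as log2 fold change ± SE. The lower ones were Fzd3 (-0.75 ± 0.15, adjusted p = 0.00533) and Dkk2 (-0.91 ± 0.16, adjusted p = 0.00187). Tcf7 was 19.3, 16.4 and 22.5 CPM, Wnt10a 68.5, 56.3 and 59.3, Fzd2 83, 85.3 and 114 and Fzd3 10.9, 12.3 and 19.5 with siSMYD3#2 at 24 h. The 3 siSMYD3#1 libraries lay above all siSMYD3#2 libraries for the first 3 of these, and for Fzd3 the groups overlapped. DESeq2 added Fzd1 and Axin2 as higher, for 10 of 33 (30.3%, beside 7.4% of all genes). In the NucleoSpin libraries alone 13 of 34 genes differed (38.2%, beside 9.76% of all genes, 5.56% higher and 4.2% lower), with Fzd1 (1.46, adjusted p = 1.21e-07), Fzd5 (0.59, 0.00501), Fzd7 (0.54, 0.000542), Dkk3 (0.76, 0.00354) and Axin2 (2.39, 0.00239) added as higher with siSMYD3#1. Without the extraction covariate 2 did, Tcf7 and Wnt10a, beside 0.158% of all genes.

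Wnt11 (chromosome 7, 98835112 to 98855195, plus strand), a ligand of the planar polarity branch, was 3.37, 1.49 and 1.38 CPM with siSMYD3#1 and 0.364, 0.288 and 0.471 with siSMYD3#2, against 0.351, 0.849 and 0.633 in siCtrl. Notum (chromosome 11, 120653788 to 120661175, minus strand), a secreted esterase that removes the lipid from Wnts, was 1.92, 1.7 and 3.22 CPM with siSMYD3#1, 0.424, 0.115 and 0.471 with siSMYD3#2 and 0.701, 0.392 and 1.69 in siCtrl. For both genes every siSMYD3#1 library was above every siSMYD3#2 library, and the difference from siCtrl missed the threshold with each siRNA (Wnt11 adjusted p = 0.0133 and 0.551, Notum 0.0151 and 0.0457 by edgeR). DESeq2 called both for siSMYD3#1 against siCtrl (Wnt11 adjusted p = 0.00622, Notum 0.00513). Notum shares 918 exon bases, Wnt11 364, Rspo3 404 and Sfrp2 347 with genes on the opposite strand, and whether the counting used strand is not given in the sources used here. Dkk2 (chromosome 3, 132085292 to 132180304, plus strand), a Dickkopf, was 17.5, 13.2 and 4.05 CPM with siSMYD3#1, 27.4, 36 and 6.2 with siSMYD3#2 and 15.7, 19.6 and 4.89 in siCtrl, and its groups overlapped through the low TRIzol libraries. The calls of Dkk2, Wnt11 and Fzd3 each rested on single libraries. The Dkk2 call was lost without siSMYD3#1 replicate 2 (adjusted p = 0.0155) or siSMYD3#2 replicate 2 (0.0245). The Wnt11 call was lost without siSMYD3#1 replicate 1 (0.046) or any siSMYD3#2 library (0.0136 to 0.0336). The Fzd3 call was lost without siSMYD3#1 replicate 1 or 2 or siSMYD3#2 replicate 2 or 3 (0.0243 to 0.0323). Without siSMYD3#2 replicate 2 the count was 5, in a fit for which the share of all genes was not computed.

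**Figure D4:**
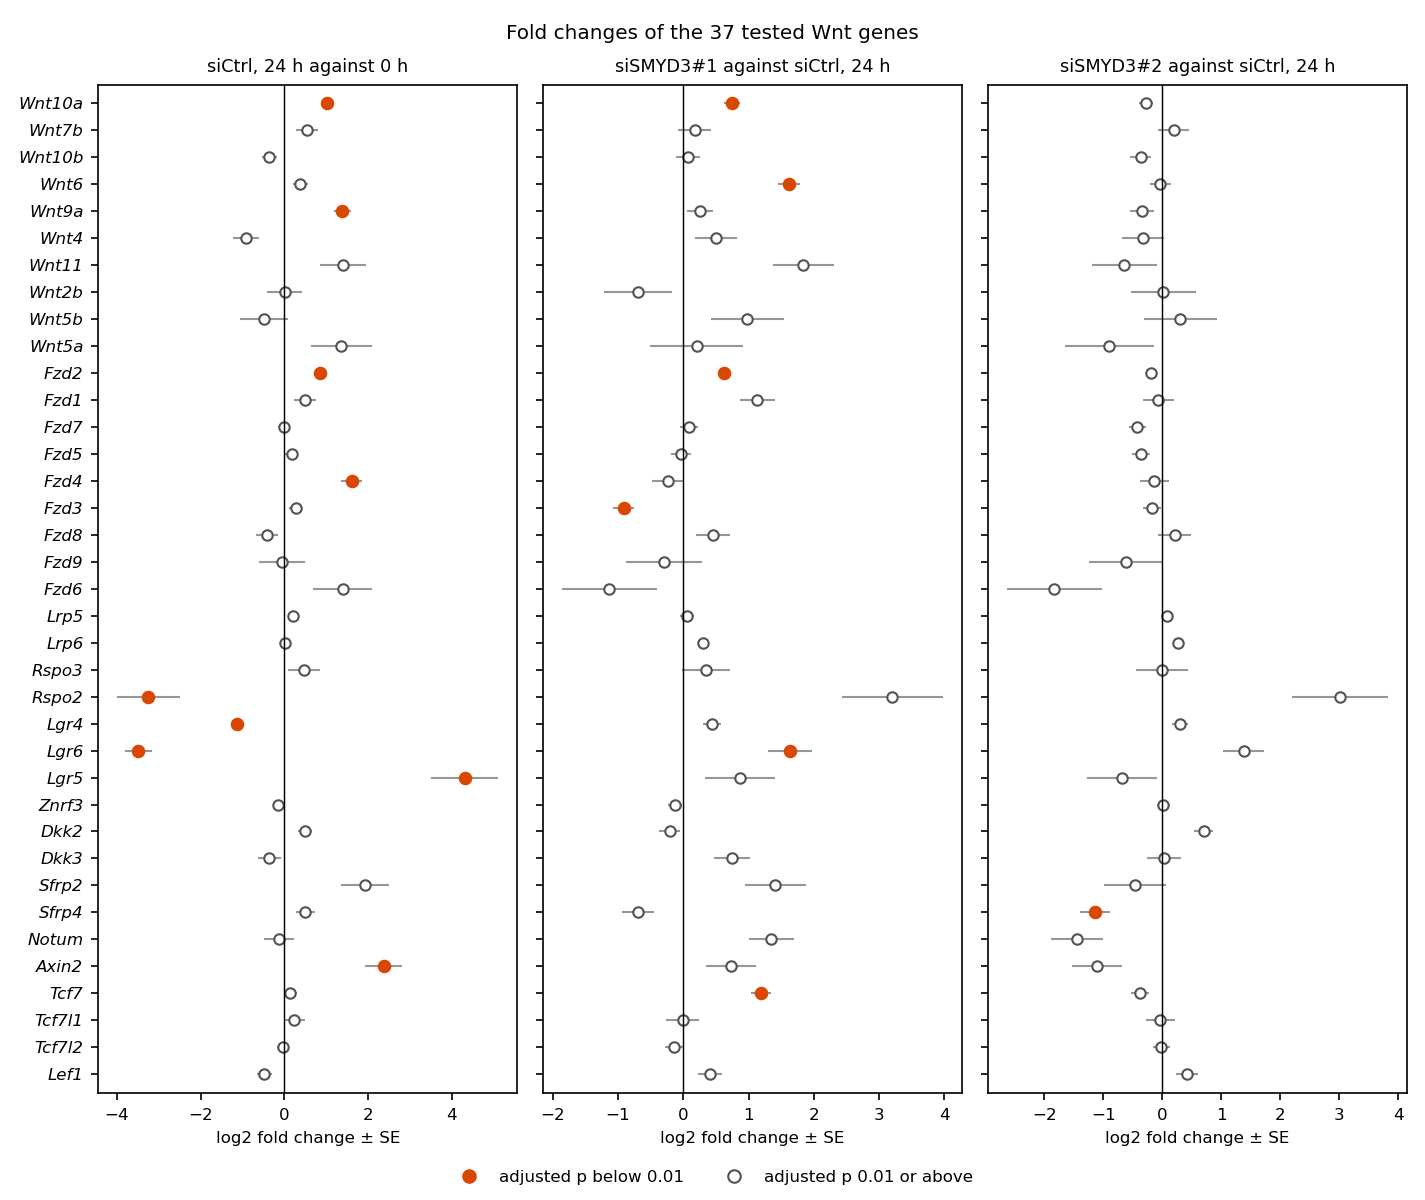
Log2 fold change ± SE of the 37 tested Wnt genes (rows, grouped by role) for siCtrl at 24 h against 0 h and for each siRNA against siCtrl at 24 h; filled points passed an adjusted p of 0.01. Of the filled points, 9 are in the first panel, 6 in the second, 5 of them to the right of 0, and 1, Sfrp4, in the third.

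At 0 h, before the medium was changed, few Wnt genes differed. With siSMYD3#1 Fzd2 passed by edgeR (1 of 37, 2.7%, beside 1.43% of all genes tested and 0.575% higher), with 50.2, 57.3 and 68.7 CPM in siCtrl and 69.6, 76.5 and 101 with siSMYD3#1. All siSMYD3#1 libraries lay above all siCtrl libraries (log2 fold change 0.48 ± 0.08, adjusted p = 0.00229). The call was lost without siCtrl replicate 1 (adjusted p = 0.0192) or 3 (0.0161) or siSMYD3#1 replicate 2 (0.0215) or 3 (0.0152). In the NucleoSpin libraries alone Fzd2 had an adjusted p of 0.0115, and Lgr6 (1.35, 0.000524), Tcf7 (0.64, 0.00227) and Lgr4 (0.47, 0.00513) passed as higher (3 of 34, 8.82%, beside 3.04% of all genes, 1.21% higher). DESeq2 on all libraries called Lgr6 (0.92, adjusted p = 0.00607) beside Fzd2 (2 of 27, 7.41%, beside 4.41% of all genes). With siSMYD3#2 0 of 37 passed by edgeR (0.531% of all genes), and DESeq2 also gave 0 (1.85% of all genes). By edgeR 7 of the 37 had an unadjusted p under 0.05, beside 1596 of all 15820 genes tested.

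Whether the change over time itself differed was tested as an interaction. It passed for Wnt6 with siSMYD3#1 and for no other gene of the 37 (2.7%, beside 0.215% of all genes, 0.0442% in this direction). Wnt6 was 4.98, 5.46 and 2.3 CPM at 0 h and 23.7, 22.7 and 8.89 at 24 h with siSMYD3#1, higher at 24 h in each replicate. In siCtrl it went from 4.5, 5.76 and 2.91 to 7.98, 5.22 and 3.8 CPM (difference of log2 fold changes 1.71 ± 0.25, adjusted p = 0.00194 by edgeR). It was lost without siCtrl replicate 2 at 0 h (adjusted p = 0.0138) or siSMYD3#1 replicate 1 at 0 h (0.0102). In the NucleoSpin libraries alone Fzd1 (1.12, adjusted p = 0.000199) and Tcf7 (0.85, 0.00858) passed beside Wnt6 (3 of 34, 8.82%, beside 1.05% of all genes, 0.361% higher). With siSMYD3#2 0 of 37 passed by edgeR, beside 0.019% of all genes, and DESeq2 also gave 0, beside 0.899%. By edgeR 6 of the 37 had an unadjusted p under 0.05, beside 1585 of all 15820 genes tested.

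In SMYD3 CL5 the Wnt genes that differed from vector past the threshold all encode secreted modulators, with Dkk2 and Dkk3 lower and Rspo2 higher. At 24 h 3 of the 38 tested genes passed (7.89%, 1 higher and 2 lower), beside 0.964% of all genes tested (0.376% higher and 0.589% lower). At 0 h the 3 that passed were Dkk2, Dkk3 and Rspo2 as well (7.89%, beside 1.07%, with 0.465% higher and 0.606% lower). The median log2 fold change of the 38 was -0.04 at 24 h and -0.08 at 0 h. Dkk2 was 21.4 and 28.2 CPM in vector at 0 h, 73.9 and 74 at 24 h. In SMYD3 CL5 it was 2.9 and 2.97 CPM at 0 h and 7.69 and 6.77 at 24 h. It was lower in all SMYD3 CL5 libraries than in any vector library (log2 fold change -3.35 ± 0.24, adjusted p = 0.00103 at 24 h, and -3.08 ± 0.24, adjusted p = 0.00165 at 0 h). Dkk3 (chromosome 7, 112116017 to 112159057, minus strand), a divergent Dickkopf, was 7.16 and 7.42 CPM in vector at 0 h and 7.32 and 6.43 at 24 h. In SMYD3 CL5 it was 0.353 and 0.0768 CPM at 0 h and 0.107 and 0.0921 at 24 h. That is 6 and 2 counts at 24 h against 330 and 419. The ratio was 66.2 with a 95% counting interval of 33.4 to 154 (log2 fold change -6.04 ± 0.64, adjusted p = 0.00454 at 24 h, and -5.06 ± 0.58, adjusted p = 0.00593 at 0 h). Rspo2 was 0.753 and 0.633 CPM in vector at 0 h and 0.177 and 0.337 at 24 h. In SMYD3 CL5 it was 9.64 and 6.81 CPM at 0 h and 4.24 and 4.97 at 24 h, higher in every library (log2 fold change 4.12 ± 0.43, adjusted p = 0.00434 at 24 h, and 3.57 ± 0.41, adjusted p = 0.00566 at 0 h).

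Other Wnt genes, among them the receptor gene Fzd8, were also far apart without passing. Rspo3 (chromosome 10, 29452416 to 29535867, minus strand) had 87 and 99 counts in vector at 0 h and 33 and 100 at 24 h, and in SMYD3 CL5 0 and 1 at 0 h and 0 and 0 at 24 h. At 24 h it was at least 11.8-fold lower in SMYD3 CL5, against a floor of 3 counts per library (adjusted p = 0.0158 by edgeR). Fzd8 had 48 and 79 counts in vector and 2 and 1 in SMYD3 CL5 at 24 h (adjusted p = 0.0185), and Sfrp2 2.64 and 2.01 CPM against 10.7 and 35.1 (log2 fold change 3.30 ± 0.55, adjusted p = 0.0223). With DESeq2 these 3 genes passed as well, for 6 of 39 at 24 h (15.4%, beside 3.98% of all genes), and at 0 h it called 10 of 38, with Wnt6, Lef1, Wnt9a and Sfrp4 in addition (26.3%, beside 5.17%). Rspo1 had 10 and 4 counts in vector at 0 h and 21 and 9 at 24 h. In SMYD3 CL5 it had 0 and 0 at 0 h and 0 and 1 at 24 h. It did not pass (log2 fold change -4.16 ± 1.45, adjusted p = 0.256 by edgeR at 24 h). Of the R-spondins tested, Rspo2 was thus higher past the threshold, and Rspo3 and Rspo1 were lower without passing. Wnt6, Fzd2 and Tcf7, higher with siSMYD3#1, did not pass here at 24 h. Not passing says little, as simulated log2 changes of 1.5 were recovered for only 15.5% of genes in this comparison. Wnt6 was 5.1 and 2.98 CPM in vector and 0.479 and 1.75 in SMYD3 CL5 at 24 h (log2 fold change -1.92 ± 0.62, adjusted p = 0.191). Fzd2 was 87.1 and 100.2 CPM in vector and 83.4 and 100.3 in SMYD3 CL5, and Tcf7 35.3 and 40.0 and 25.6 and 56.9.

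**Figure D5:**
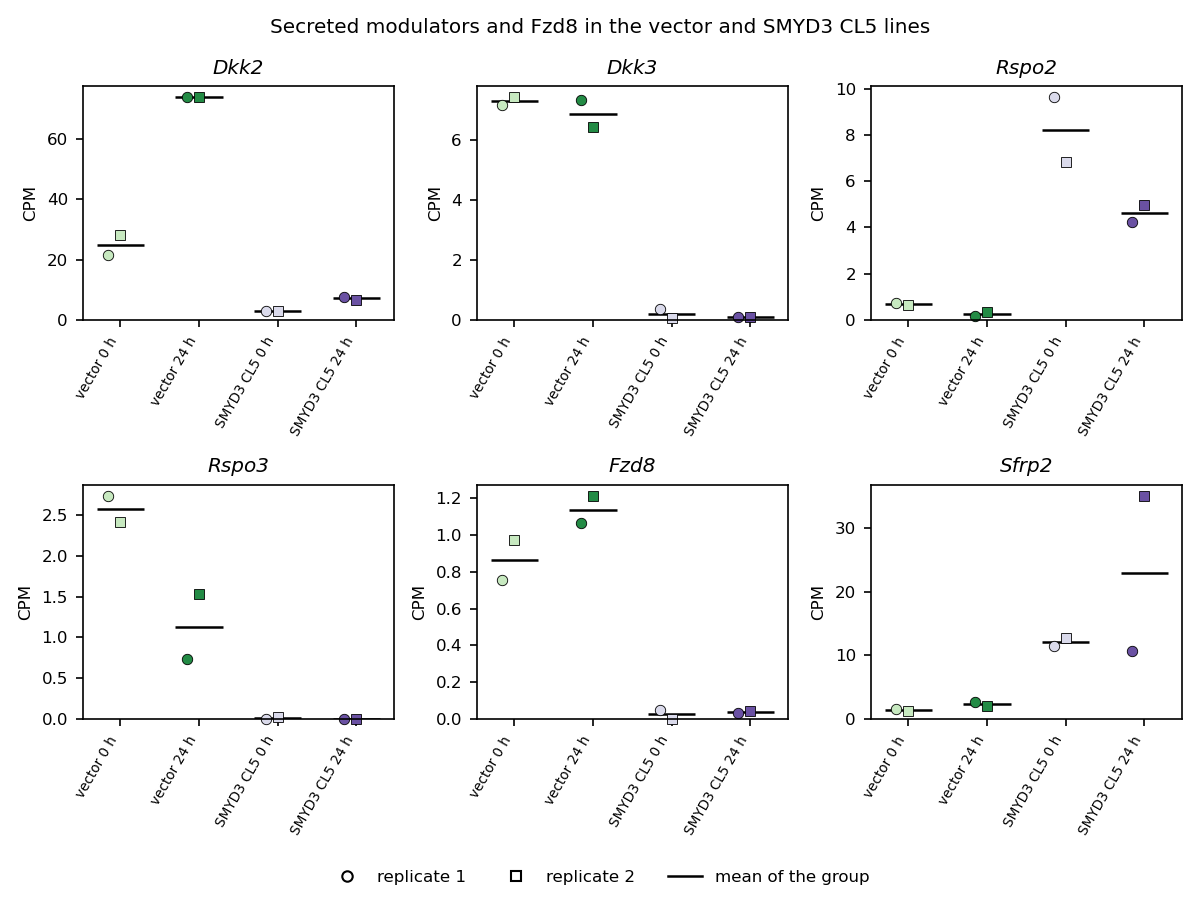
CPM of Dkk2, Dkk3, Rspo2, Rspo3, Fzd8 and Sfrp2 in each vector and SMYD3 CL5 library at 0 h and 24 h (points, replicates 1 and 2) with the mean of each group (bar). Dkk2, Dkk3, Rspo3 and Fzd8 are lower and Rspo2 and Sfrp2 higher in all SMYD3 CL5 libraries at both times; of these, only Dkk2, Dkk3 and Rspo2 passed the test.

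SMYD3 CL5 is 1 clone, so a difference of that clone and an effect of SMYD3 cannot be told apart. Of the 10 myotube markers, 2 passed as higher than in vector at 0 h and 0 at 24 h by edgeR, while their median log2 fold change was 5.87 at 0 h and 4.56 at 24 h. Myog was 48.9 ± 46.7 CPM (SD, n = 2) at 0 h against 0.409 ± 0.179 in vector, and the part of the differentiation state in the Wnt differences was not tested. With 2 libraries a group, no call held through the removal of each library in turn. Each of these fits left 1 library in a group, and the share of all genes was not computed in them. At 24 h the count was 0 without either SMYD3 CL5 or either vector library of that time, 1 without either vector library at 0 h and 7 without either SMYD3 CL5 library at 0 h. For the comparison at 0 h it was 0 without either vector library of that time, 1 without either vector library and 2 without either SMYD3 CL5 library at 24 h, and 9 or 5 without SMYD3 CL5 replicate 1 or 2 at 0 h. Adjusted p then reached 0.0209 for Dkk2, 0.0675 for Dkk3 and 0.042 for Rspo2 at 24 h, with log2 fold changes of -3.45 to -3.27, -6.18 to -5.95 and 3.75 to 4.71 among the fits that lost the call. Between 24 h and 0 h, 0 of 38 genes passed by edgeR in vector and 0 in SMYD3 CL5, beside 0% of all genes in both. An unadjusted p under 0.05 was found for 8 of the 38 in vector and 7 in SMYD3 CL5. Of all 17835 genes tested, 1256 and 1137 had such a p. DESeq2 called 1 in vector (Dkk2) and 2 in SMYD3 CL5 (Lgr6 and Dkk2), beside 0.7% and 0.557% of all genes. Lgr6, which fell over time in siCtrl, was 127 and 132 CPM at 0 h and 31.9 and 32.8 at 24 h in vector, and in SMYD3 CL5 100.4 and 147 at 0 h and 29.1 and 7.64 at 24 h, lower in both libraries at 24 h than in either at 0 h. The difference of the time effects passed for 0 of 38 by edgeR and by DESeq2. By edgeR 0 of the 38 had an unadjusted p under 0.05, beside 312 of all 17835 genes tested.

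The rest of the pathway was read from 6 lists with 102 genes, of which 87 were tested in the siRNA experiment and 84 in the overexpression experiment. In siCtrl over time 14 rose and 12 fell (29.9% of the 87), a share near the 29.4% of all genes. Porcn (1.52 ± 0.17, adjusted p = 1.27e-06), the acyltransferase that adds the lipid to Wnts, and Daam2 (3.24 ± 0.21, adjusted p = 5.98e-09), a formin of the planar polarity branch, were among those that rose, with Camk2a (2.85 ± 0.40, adjusted p = 2.57e-05), a kinase of the calcium branch. Id2 (-2.86 ± 0.17, adjusted p = 5.74e-10), an inhibitor of myogenic helix-loop-helix factors, Bambi (-2.07 ± 0.40, adjusted p = 0.000428), a pseudoreceptor of the TGF-beta family, and Fosl1 (-1.78 ± 0.23, adjusted p = 2.43e-05) fell, each given as log2 fold change ± SE. Of the textbook beta-catenin targets, 14 were tested, of which 1 rose and 5 fell (42.9%, beside 14.6% higher and 14.8% lower of all genes). The median log2 fold change of the 14 was 0.25.

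With siSMYD3#1 at 24 h 6 of the 87 were higher and 6 lower (13.8%, beside 5.85% of all genes, 2.91% higher and 2.94% lower). Igfbp4 (2.58 ± 0.37, adjusted p = 0.000422), a secreted protein that can block Wnt at its receptors, and Nkd2 (2.39 ± 0.43, adjusted p = 0.00193; 1543 of its 1818 counts were in 1 library), a feedback inhibitor that binds Dishevelled, were higher. So were Trabd2b (1.66 ± 0.24, adjusted p = 0.000114), a membrane protease that cleaves Wnts, with 1211 of its 1404 counts in 1 library, and Ccn5 (0.89 ± 0.21, adjusted p = 0.00851). Camk2a (-1.79 ± 0.38, adjusted p = 0.00496) and Nfatc2 (-0.95 ± 0.23, adjusted p = 0.00879) were lower. With siSMYD3#2 at 24 h 4 passed (4.6%, beside 3.7% of all genes, 1.66% higher and 2.04% lower). The higher one was Tpbg (0.55 ± 0.09, adjusted p = 0.000996), a membrane inhibitor. Tpbg was also among the 6 that were higher with siSMYD3#1 (0.56 ± 0.09, adjusted p = 0.000468 by edgeR). The 3 that were lower were Prickle1 (-1.14 ± 0.14, adjusted p = 0.000103) of the planar polarity branch, Dact3 (-0.86 ± 0.15, adjusted p = 0.00177) and Jun (-0.57 ± 0.11, adjusted p = 0.00297). In SMYD3 CL5 against vector at 24 h 4 of 84 passed (4.76%, beside 0.964% of all genes, 0.376% higher and 0.589% lower). The higher one was Fst, encoding follistatin (4.43 ± 0.40, adjusted p = 0.00242), and 3 were lower, Igfbp4 (-3.12 ± 0.39, adjusted p = 0.00772), the co-receptor Ptk7 (-2.66 ± 0.32, adjusted p = 0.0062) and Ror2. Ror2, a receptor for Wnt5a, had 0 counts in SMYD3 CL5 and 378 in vector, at least 36.2-fold lower against a floor of 3 counts per library (adjusted p = 0.00851 by edgeR). Over the 6 lists the median log2 fold change was 0.06 in siCtrl over time, 0.01 for siSMYD3#1, -0.10 for siSMYD3#2 and -0.26 for the clone, beside 0.03, -0.00, -0.00 and 0.02 over all genes.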

How the data were processed

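RNA-Seq libraries of C2C12 cells were compared within the siRNA experiment (18 libraries, 6 groups of 3) and within the overexpression experiment (8 libraries, 4 groups of 2). According to the study's methods and the submitters' processing notes, 75-base paired-end reads of stranded mRNA libraries were checked with FastQC 0.11.5, aligned to GRCm38 with HISAT2 2.1.0 and assigned to genes with featureCounts of Subread 1.6.3. The authors deposited raw counts per gene and library, without normalization. Strand setting, treatment of multimapping reads and annotation release are not given in the sources used here, and 54495 of the 55341 gene IDs matched GENCODE M21.

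From the counts, edgeR 4.0.16 (R 4.3.3) was run per experiment with filterByExpr, TMM and robust quasi-likelihood tests, on 15820 genes of the siRNA experiment, with extraction as a covariate, and on 17835 of the overexpression experiment. P-values were adjusted by Benjamini-Hochberg over all genes tested, with a threshold of 0.01. SE is the absolute log2 fold change over the square root of F. CPM used TMM-scaled library sizes. Counting intervals are exact at 95%, cover counting error only, and a group at 0 was set to a floor of 3 counts per library. Depth was 14315193 to 60398170 counts in the siRNA libraries and 21124675 to 67853386 in the overexpression libraries. The scripts were tested on simulated data drawn with the common dispersion of each experiment. A log2 change of 1.5 was recovered for 100% of changed genes in siSMYD3#1 against siCtrl at 24 h. In SMYD3 CL5 against vector at 24 h it was recovered for 15.5%, and a change of 3 for 99.5%.

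The members and lists were chosen with earlier results of these data known. Genes past the threshold in any comparison, and the highest of each family per kb, are given by library. Of the other pathway lists up to 6 called genes with the largest change are named per comparison, and up to 5 genes most like the one with the largest F over time in siCtrl. Replicate numbers are those of the study's sample list. Same-numbered siRNA libraries deviated together from their group means (correlations of 0.33 to 0.86), with extraction and passage as the shared property. After removal of extraction, the 15 correlations for replicate 1, the same as those for replicate 2, had a median of 0.01, with 2 above 0.1. Replicates 1 and 2 are thus not shown to be paired across groups. Statements above about each replicate follow the listed numbers only. In the overexpression experiment 4 of 6 were above 0.1 and the numbers were not taken as paired. Alternatives were DESeq2 1.42.0, RLE size factors, no filter, a threshold of 0.05, no extraction covariate, NucleoSpin libraries alone, a replicate block and leaving out each library. The TRIzol term was read out after seeing the data.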

Additional observations from a re-analysis of the deposited data

Results flagged for a closer look

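The change over time of Wnt6 differed between the libraries labelled siSMYD3#1 and siCtrl by 1.71 on the log2 scale, which was tested as the difference itself (adjusted p = 0.00194 by edgeR). It was higher at 24 h than at 0 h in 3 of 3 siSMYD3#1 replicates.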

How the results depend on the processing

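The counts of Wnt genes past the threshold depended on the settings as follows. The share of all genes was not computed without the filter, at 0.05 or with RLE size factors. Nor was it computed with the replicate block or with a library left out. Whether counts in those settings, here and for the other pathway genes below, moved more than over all genes was not tested. Without the low-count filter they were 14 in siCtrl over time, 13 for siSMYD3#1 and 4 for siSMYD3#2 against siCtrl at 24 h, 4 and 1 at 0 h, 14 for siSMYD3#1 against siSMYD3#2, 2 and 2 for the differences of time effects, 3 in vector and 2 in SMYD3 CL5 over time, and 8 and 10 for SMYD3 CL5 against vector at 24 h and 0 h. At a threshold of 0.05 they were 14, 12 and 5 in the first 3 of these, and 6 and 10 for SMYD3 CL5 at 24 h and 0 h. Without the extraction covariate they were 4 in siCtrl over time, 1 and 0 at 24 h, 0 for siSMYD3#1 at 0 h, 2 between the siRNAs and 0 for the siSMYD3#1 time effect. In the NucleoSpin libraries alone they were 12 and 5 at 24 h, 3 for siSMYD3#1 at 0 h, 13 between the siRNAs and 3 for the siSMYD3#1 time effect. DESeq2 gave 3 for siSMYD3#2 at 24 h, 2 for siSMYD3#1 at 0 h, 1 in vector and 2 in SMYD3 CL5 over time, and 6 and 10 for SMYD3 CL5 at 24 h and 0 h, and RLE size factors gave 2 for siSMYD3#2 at 24 h. With the replicate block the count for siSMYD3#2 at 24 h was 0, Sfrp4 losing its call (adjusted p = 0.0120), and no other Wnt gene named as past the threshold lost its call.

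For the other pathway genes, the counts were 13, 3 and 0 without the extraction covariate (siCtrl over time, siSMYD3#1 and siSMYD3#2 at 24 h), 21 and 12 in the NucleoSpin libraries and 21 and 14 at 0.05 for the siRNAs, 12 without the filter and 12 with DESeq2 for siSMYD3#2, and 8 without the filter and 7 with DESeq2 for SMYD3 CL5. Leaving out each library gave 8 to 10 Wnt genes in siCtrl over time, 5 to 10 and 0 to 3 for siSMYD3#1 and siSMYD3#2 at 24 h, 0 to 1 and 0 to 0 at 0 h, 5 to 11 between the siRNAs, 0 to 1 and 0 to 0 for the time effects, 0 to 0 in vector and 0 to 1 in SMYD3 CL5 over time, 0 to 7 and 0 to 9 for SMYD3 CL5 at 24 h and 0 h and 0 to 0 for its time effect, and 22 to 28, 6 to 15, 1 to 7 and 0 to 5 other pathway genes. Of 32 calls of single genes, 31 were kept with DESeq2, 22 in the NucleoSpin libraries (3 lost) and 7 without the extraction covariate (19 lost), and none reversed. The causes were not tested. Depth limits the low genes: Rspo2 had 39 counts over the 3 siCtrl libraries at 0 h and 2 at 24 h, and Lgr5 had 5 at 0 h and 130 at 24 h, of which 127 were in replicate 3.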
